A study of Mus musculus with 8 samples.

Results

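The immediate-early genes followed here are 10 genes (Fos, Fosb, Fosl2, Jun, Junb, Jund, Egr1, Ier2, Ier3 and Nr4a1). They were chosen by name, but with earlier results of these data known. They were read on the arrays through every probe that carries one of these gene names, which gave 11 probes and 20 spots per array, out of 34797 genes, 55681 probes and 59305 spots in all. Thyroids of female Balb/c mice, 8 weeks old, were compared between 4 control animals (Ct) and 4 animals given the radionuclide 99mTcO4- (Tc), for which the dose absorbed by the gland was 30 Gy. RNA was taken 24 h after administration and each thyroid was hybridised to 1 one-colour array. The study describes the controls in one place as untreated and in another as given saline. Control animals are called control 1 to control 4 below, and exposed animals carry the names of the labels, S539, S588, S589 and S590.

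Immediate-early genes are switched on within minutes of a growth factor, a stress or a rise in calcium, from factors such as SRF, the ternary complex factors and CREB that are already present in the cell, and their mRNAs are short-lived. Fos and Jun proteins pair through a leucine zipper to form AP-1, which binds DNA at the TPA response element, whereas Egr1 is a zinc finger factor and Nr4a1 an orphan nuclear receptor. In the thyroid, this class of genes is known to respond to TSH and to growth factors. Ier2 and Ier3 share the rapid induction but do not belong to a known family of DNA-binding factors, Ier3 being best known as a regulator of cell survival and of ERK signalling.

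All 11 probes were well above background on all 8 arrays and no spot on any array was saturated, so that every value of these probes is a measured level. Some other genes named below, such as Rag1 and Ly6g, were not above background on every array. The gland itself was recognisable on every array: Tg, which encodes thyroglobulin, was at 18.75 to 18.97 in controls and at 18.70 to 19.07 in exposed thyroids (log2 signal), and Nkx2-1, a transcription factor of thyrocytes, was at 11.98 to 12.83 and at 12.25 to 12.51. As a reference for the exposure, Cdkn1a, a cell cycle inhibitor induced through p53, was higher in exposed thyroids by 3.83 on the log2 scale (SE 0.304, limma adjusted p = 0.0032), and Slc5a5, which encodes the iodide symporter that also carries 99mTcO4-, fell by 3.53 (SE 0.406, limma adjusted p = 0.0137).

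Of the 10 genes, Fosl2 was the one that passed the test, and it was higher in exposed thyroids by 0.81 ± 0.13 (SE) on the log2 scale, which is 1.75-fold. Egr1 was higher in every exposed thyroid than in every control, by 1.42 ± 0.41 on the log2 scale, but did not pass after adjustment. Fos had a larger mean difference still, 1.58 ± 0.88, with S590 above the highest control and the other 3 exposed thyroids inside the range of the controls. The 3 Jun genes, Ier2 and Ier3 differed by -0.17 to 0.30 log2 units. By count, 1 of 10 genes was called higher and none was called lower by limma at an adjusted p of 0.05, where 0.897% of all genes were called and 0.69% were called higher. The limma p before adjustment was under 0.05 for 2 of the 10, and for 12.2% of all probes. The median difference over the 10 genes was 0.37, against 0.0103 over all genes, and 8 of 10 lay above 0, as 51.1% of all genes did. By probe, 1 of 11 was called, against 0.781% of all probes, and 2 of 11 (Egr1 and the brighter Fosl2 probe) had groups that did not overlap, against 9.11% of all probes. In whole thyroid, a lower signal from fewer cells of a type cannot be told apart from one due to less RNA per cell.

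**Figure D1:**
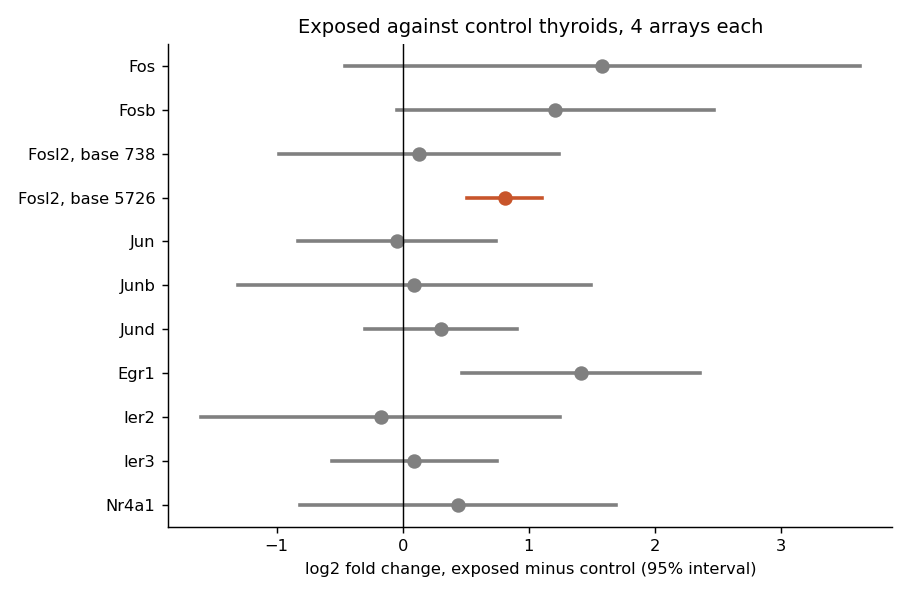
Log2 fold change of each of the 11 probes, exposed minus control, with its 95% interval from limma over 4 and 4 arrays. The brighter Fosl2 probe (base 5726, red) is the one called, at 0.81, and the interval of Egr1 (0.47 to 2.36) also lies above 0, whereas the intervals of the other 9 probes include 0.

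Fosl2 encodes Fra-2, a Fos family partner of the Jun proteins that lacks a strong transactivation domain and is typically induced later and for longer than Fos. Its brighter probe lies at chr5:32460076-32460135 (mm9, plus strand) and starts at base 5726 of the transcript. The control values were 11.42, 11.50, 11.75 and 11.53 (log2 signal, controls 1 to 4), and the exposed values 12.46, 12.33, 12.32 and 12.33 (S539, S588, S589 and S590). The lowest exposed thyroid was above the highest control, and both groups were tight, with a mean of 11.55 ± 0.14 (SD, n = 4) in controls and 12.36 ± 0.066 (SD, n = 4) in exposed thyroids. The limma difference of 0.81 had a 95% interval of 0.51 to 1.11, which is 1.43-fold to 2.16-fold, and an adjusted p of 0.0382 over all probes. The two-sided exact permutation test over the 70 assignments of 4 and 4 arrays gave p = 0.0286, the smallest it can give. The call was close to the threshold: it was lost when any 1 of the 8 arrays was left out (limma adjusted p from 0.0601 to 0.143), although the difference stayed between 0.77 and 0.88.

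The other Fosl2 probe did not show this difference. It lies at chr5:32455088-32455147 (mm9, plus strand), starts at base 738 of the same transcript, 4988 bases before the first, and gave 8.55, 6.06, 6.80 and 7.34 in controls 1 to 4, against 7.22, 7.61, 7.19 and 7.26 in S539, S588, S589 and S590. The exposed values lay inside the range of the controls, which was wide, and the difference was 0.13 ± 0.48 (SE), with an interval of -0.98 to 1.24 that holds the value of the brighter probe (limma adjusted p = 0.932). With the mean of both probes in place of the brighter one, the gene was not called (0.47, limma adjusted p = 0.454). The first 30 bases of each probe, 5′ to 3′, as the array files give them, are shown because the call rests on which of them is read.
Fosl2 probe at base 5726: gctatggaggaaagaacatattaaaaactt
Fosl2 probe at base 738: gattgctgagctgcagaaggagaaggagaa

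Where the brighter Fosl2 probe was higher in exposed thyroids, several lists of markers of other cells had a median difference below 0. Among them were 5 macrophage markers (Csf1r, Emr1, Cd68, C1qa and C1qb, -0.41), 5 fibroblast markers (Col1a1, Col1a2, Pdgfra, Dcn and Lum, -0.46), 6 skeletal muscle markers (-0.91) and 6 T cell and thymocyte markers (-1.77). The summed macrophage signal was 15000 to 20170 in controls and 12310 to 15480 in exposed thyroids, with Csf1r (-0.63) and Emr1 (-0.58) lower in every exposed thyroid, C1qa (-0.41) and C1qb (-0.26) overlapping between groups, and Cd68 at 0.23 in the other direction. The fibroblast sum was 139000 to 183700 and 104700 to 143800, with Pdgfra (-1.05) and Dcn (-0.61) lower in every exposed thyroid and Col1a1 (-0.020), Col1a2 (-0.15) and Lum (-0.46) overlapping. The muscle sum was 681700 to 1448000 and 357600 to 1137000, with differences from -1.16 to -0.12 in the 6 markers (Acta1, Ckm, Myh4, Myl1, Tnnt3 and Mylpf). The T cell and thymocyte sum was 3327 to 59189 and 3511 to 6321. All 4 sums overlapped between groups and none of these markers was called. Their part in the Fosl2 difference was not tested.

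Fos, the founding member of the family and one of the most transient of these mRNAs, was represented by 1 probe printed 10 times on each array, at chr12:86817900-86817959 (mm9, plus strand). The controls gave 7.92, 9.44, 12.20 and 11.27 (log2 signal, mean of 10 spots, controls 1 to 4), and S539, S588, S589 and S590 gave 12.06, 11.07, 11.56 and 12.48. The exposed thyroids were all high, and so were controls 3 and 4, whereas controls 1 and 2 were low, so that the groups overlapped. The difference was 1.58 ± 0.88 (SE), with an interval of -0.46 to 3.63 (limma adjusted p = 0.507, two-sided exact permutation p = 0.2). The 10 spots of an array had an SD of 0.0501 to 0.136, whereas the 4 controls had an SD of 1.91, so the spread lay between the thyroids and not between the spots. Of 19694 genes whose average log2 signal reached 7, 99.7% had a smaller SD among controls than Fos.

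Controls 1 and 2 also differed from the other 6 arrays in T cell and thymocyte markers. The summed signal of 6 such markers (Cd3e, Cd3g, Lck, Rag1, Dntt and Ptcra) was 59189 in control 1 and 33615 in control 2, against 3327 to 6321 on the other arrays. Rag1, the recombinase of developing lymphocytes, was at 11.96 and 10.64 in these controls and at 2.80 to 5.45 elsewhere, where it was well above background on 1 array. With both of these controls left out, a choice made after seeing the data, the mean Fos level was 11.73 in controls 3 and 4 against 11.79 in the exposed thyroids, a difference of 0.059 with 1 of 4 exposed thyroids above both controls. Egr1 and the brighter Fosl2 probe remained above both of these controls in 4 of 4 exposed thyroids, with differences of 0.75 and 0.72, and neither was called there (limma adjusted p for Fosl2 0.193). The part of the lymphoid signal in the low Fos of these controls was not tested.

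**Figure D2:**
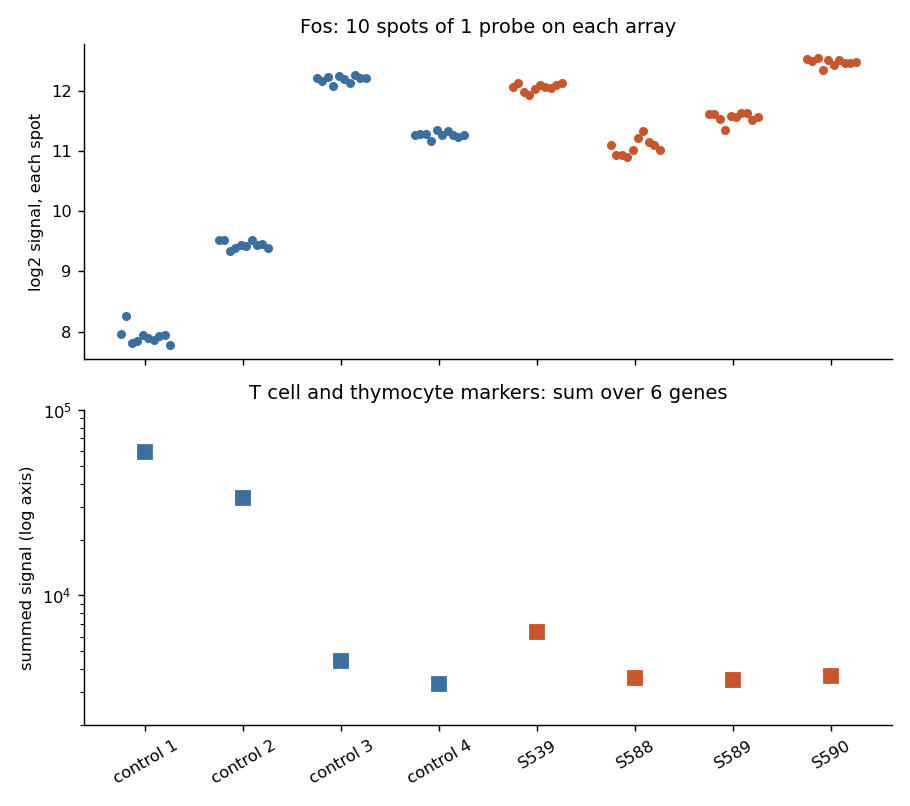
Upper panel, log2 signal of each of the 10 Fos spots on each array, controls in blue and exposed thyroids in red; lower panel, summed linear signal of the 6 T cell and thymocyte markers on the same arrays, on a log axis. Controls 1 and 2 are lowest for Fos, at 7.92 and 9.44, and highest for the markers, at 59189 and 33615, and the spots of an array lie close together.

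Fosb, the Fos family gene that also gives rise to the long-lived ΔFosB, was read by a probe at chr7:19888168-19888227 (mm9, minus strand). It was at 8.65, 7.98, 9.01 and 8.17 in controls 1 to 4 and at 11.35, 8.95, 9.21 and 9.15 in S539, S588, S589 and S590. S539 stood far above the rest, S589 and S590 were slightly above the highest control, and S588 was just below it. The difference was 1.21 ± 0.54 (SE), with an interval of -0.047 to 2.47 (limma adjusted p = 0.427, two-sided exact permutation p = 0.0571), and it was 0.65 without S539.

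Jun, Junb and Jund encode the partners that Fos proteins need to bind DNA. Jun (chr4:94716928-94716987, mm9, minus strand) was at 14.14, 14.43, 15.51 and 14.74 in controls 1 to 4 and at 15.06, 14.25, 14.32 and 15.02 in S539, S588, S589 and S590. The groups overlapped fully, with a difference of -0.043 ± 0.34 (SE) and an interval of -0.83 to 0.74 (limma adjusted p = 0.969). Junb, often an antagonist of Jun (chr8:87501881-87501940, mm9, minus strand), ran from 6.62 to 8.26 in controls and from 6.05 in S588 to 8.91 in S539, with a difference of 0.093 ± 0.61 and an interval of -1.31 to 1.495. Jund, the constitutive member of the Jun family (chr8:73224436-73224495, mm9, plus strand), was at 14.87 to 15.53 in controls, at 15.16 to 15.40 in S588, S589 and S590 and at 16.19 in S539, a difference of 0.30 ± 0.26 with an interval of -0.30 to 0.90. None of the 3 Jun genes was called (limma adjusted p from 0.659 to 0.969), and the intervals leave room for a change of up to 1.67-fold in Jun, 2.82-fold in Junb and 1.87-fold in Jund towards higher levels in exposed thyroids.

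Egr1, the zinc finger factor downstream of ERK and SRF, showed the clearest split between groups after Fosl2. It was read by a probe at chr18:35024395-35024454 (mm9, plus strand). The controls were at 11.06, 11.48, 12.79 and 12.41 (controls 1 to 4), and the exposed thyroids at 13.16, 12.97, 13.36 and 13.91 (S539, S588, S589 and S590). All 4 exposed thyroids were above all 4 controls, with the gap between S588 and control 3 being small beside the spread of the controls. The means were 11.93 ± 0.80 (SD, n = 4) and 13.35 ± 0.40 (SD, n = 4), and the difference of 1.42 had an interval of 0.47 to 2.36, which is 1.39-fold to 5.14-fold. The two-sided exact permutation p was 0.0286, the smallest possible here, and the limma p was 0.00859 before and 0.218 after adjustment over all probes. The difference was between 0.75 and 1.71 in 19 alternatives of processing or of arrays used, and it passed after adjustment in none of them.

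Nr4a1 (Nur77), the nuclear receptor of this group (chr15:101105071-101105130, mm9, plus strand), was at 14.21, 12.24, 13.51 and 13.97 in controls 1 to 4 and at 13.26, 13.86, 13.44 and 15.11 in S539, S588, S589 and S590. S590 was the highest and control 2 the lowest, and the other 6 thyroids were mixed. The difference was 0.44 ± 0.54 (SE), with an interval of -0.81 to 1.69 (limma adjusted p = 0.763).

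Ier2 (chr8:87186214-87186273, mm9, minus strand) was at 7.10, 8.50, 9.82 and 9.26 in controls 1 to 4 and at 9.44, 7.69, 8.57 and 8.28 in S539, S588, S589 and S590. The controls spanned the whole range of the exposed thyroids, and the difference was -0.17 ± 0.62 (SE), with an interval of -1.60 to 1.25 (limma adjusted p = 0.930). Against controls 3 and 4 alone, a choice made after seeing the data, 0 of 4 exposed thyroids were above both and the difference was -1.05. Ier2 was not called there (limma adjusted p = 0.426). In the same comparison Jun was at -0.46 and Junb at -0.44, and the remaining members were above 0. Ier3 (chr17:35959528-35959587, mm9, plus strand) had narrower groups, 9.74 to 10.50 in controls and 9.72 to 10.81 in exposed thyroids, and a difference of 0.094 ± 0.28 with an interval of -0.56 to 0.75 (limma adjusted p = 0.915).

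**Figure D3:**
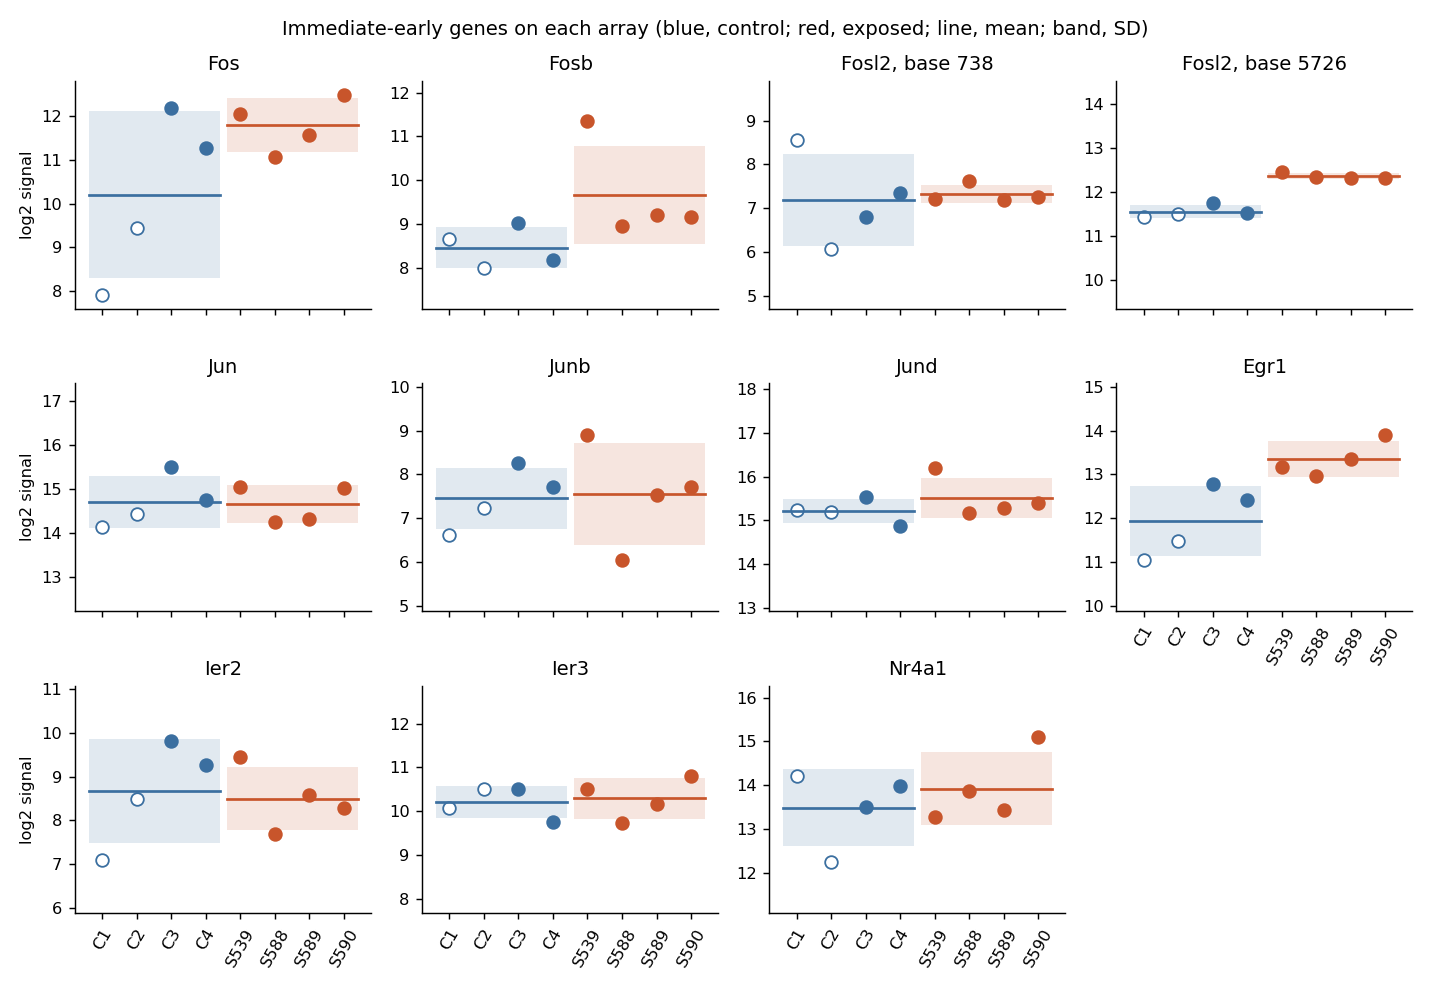
Log2 signal of each of the 11 probes on each array, controls (C1 to C4) in blue and exposed thyroids in red, with the mean as a line and the SD as a band; open circles mark controls 1 and 2. Exposed and control points separate for Egr1 and for the Fosl2 probe at base 5726, and controls 1 and 2 are the lowest points for Fos, at 7.92 and 9.44, and for Egr1, at 11.06 and 11.48.

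The 10 genes varied widely between animals of the same group. The median SD within groups was 0.261 over the 19694 genes whose average log2 signal reached 7. It was 1.41 for Fos, 0.979 for Ier2, 0.964 for Junb, 0.862 for Fosb and 0.857 for Nr4a1, each larger than in at least 95.6% of those genes. Egr1 (0.635), Jun (0.519), Ier3 (0.421) and Jund (0.382) were also above the median. Fosl2, read through its brighter probe, was the exception, at 0.112, with 6.91% of those genes having a smaller SD. It was this probe, with a difference smaller than that of Fos, Fosb or Egr1, that passed the test. The dimmer Fosl2 probe had an SD of 1.05 in controls and 0.198 in exposed thyroids.

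The variation was partly shared, in that the same animals were high or low for most of the genes. Control 3 was the highest control for 9 of 10 genes (all but Nr4a1), and control 1 was the lowest control for 6 of 10. Among exposed thyroids, S588 was the lowest for 8 of 10, and the highest was S539 for 6 and S590 for 4. The mean over the 10 genes, every gene being set relative to its own average on the 8 arrays, was -0.83, -0.62, 0.41 and -0.11 in controls 1 to 4 and 0.77, -0.27, 0.10 and 0.55 in S539, S588, S589 and S590. On this measure control 3 lay above S588 and S589, and the groups overlapped. S588 was also the array on which 3 neutrophil markers (S100a8, S100a9 and Ly6g) were highest, with a summed signal of 41740 against 353 to 2360 on the other arrays, Ly6g being well above background on 1 array only. The part of these cells in the low values of S588 was not tested.

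**Figure D4:**
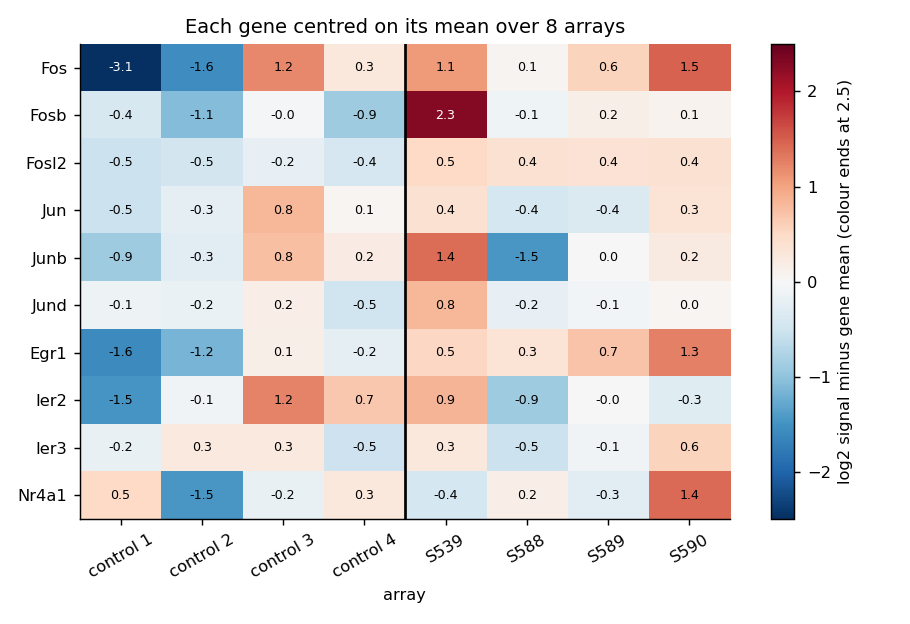
Log2 signal of each of the 10 genes on each array minus that gene's mean over the 8 arrays (colour scale ends at 2.5), with controls left and exposed thyroids right of the black line; Fosl2 is read through its brighter probe. The column means run from -0.83 in control 1 to 0.77 in S539, and the Fosl2 row is the one in which all controls lie below and all exposed thyroids above 0.

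As a description over 8 arrays with each group centred on its own mean, the Pearson correlation of Fos was 0.96 with Egr1, 0.88 with Ier2, 0.88 with Jun, 0.80 with Fosl2 and 0.67 with Junb, all of which share the same RNA samples and the same low controls 1 and 2. With the remaining members it was lower, at 0.29 with Ier3, 0.20 with Jund, 0.19 with Fosb and 0.09 with Nr4a1. Over all 45 pairs of the 10 genes, the correlation ran from -0.30 to 0.96, with a median of 0.58. Without centring, the correlation of Fos over the 8 arrays and over the 6 arrays left without controls 1 and 2 was 0.92 and 0.59 with Egr1, 0.68 and 0.38 with Ier2, 0.71 and 0.79 with Jun, 0.68 and 0.18 with Fosl2, and 0.59 and 0.67 with Junb, so that those with Egr1, Ier2 and Fosl2 were lower without these controls. Fosb went with Jund (0.93), and both were highest in S539. Nr4a1 followed none of the others, its highest value being 0.30, with Egr1. Outside the 10 genes, the genes whose signal most resembled their mean were Krit1 (Pearson 0.97), Setdb2 (0.97) and Gpatch8 (0.97), together with 2 probes for intergenic non-coding RNA regions on chr7 and chr13, out of 19684 genes compared over 8 arrays. None of these was called, and their values without control 1 and S539 were 0.93 to 0.98.

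A further 30 immediate-early genes were listed from general knowledge, with earlier results of these data known. Of these 30 genes, 5 were called higher, against 0.69% of all genes, and none lower. The median difference was 0.63, 25 lay above 0, and 19 had an unadjusted p under 0.05, as did 12.2% of all probes. The 5 were Btg2, an antiproliferative gene (1.76 ± 0.24, SE, limma adjusted p = 0.023), the polo-like kinases Plk3 (1.26 ± 0.16, 0.0175) and Plk2 (1.17 ± 0.19, 0.0382), the pseudokinase Trib1 (1.17 ± 0.16, 0.026), and Maff, a small Maf protein (1.00 ± 0.16, 0.0399). Btg2, Plk2 and Plk3 are also known targets of p53. Btg2 was at 11.07, 10.71, 11.59 and 11.38 in controls 1 to 4 and at 13.17, 12.74, 12.65 and 13.24 in S539, S588, S589 and S590, so that its lowest exposed thyroid was above its highest control, as for the other 4. Trib1 was read by 3 probes, of which a second also had groups apart (1.12, limma adjusted p = 0.085), and the dimmest did not (0.91, 0.539). The count was 4 without control 1, 3 without control 3, 1 without control 4 or S588, and 0 without control 2, S539, S589 or S590, and it was 0 without both controls 1 and 2.

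The remaining large differences in that list were not called. Atf3, a stress-induced CREB family factor, was at 8.34 to 9.78 in controls and at 10.38, 10.62, 9.47 and 12.90 in S539, S588, S589 and S590 (1.61 ± 0.70, limma adjusted p = 0.416), with S589 inside the control range. Sik1, a kinase induced by cAMP, was at 8.53 to 9.18 and at 9.60 to 10.02 (1.08 ± 0.20, 0.0702). Myc went the other way, at 8.53 to 9.34 in controls and 7.64 to 8.41 in exposed thyroids (-1.04 ± 0.24, 0.131), with no overlap.

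The factors that pair or compete with Fos and Jun, the signalling upstream of these genes and the feedback on it held no called gene. Of 14 AP-1 partners and related bZIP factors, 0 were called by limma and 5 had an unadjusted p under 0.05, with a median of 0.017, where 0.897% of all genes were called and 12.2% of all probes had such a p. The largest differences among them were in Batf (-1.15 ± 0.26, limma adjusted p = 0.124) and Batf3 (-0.76 ± 0.24, 0.262), AP-1 factors of lymphoid and dendritic cells, and in Jdp2, a repressor that pairs with Jun (0.94 ± 0.23, 0.144), each with groups apart. Of 22 genes of the MAPK cascades and SRF, 0 were called and 0 had an unadjusted p under 0.05, with a median of -0.070 and extremes of -0.34 in Mapk8 and 0.39 in Braf (Rps6ka5 -0.32). Of 16 feedback inhibitors, 0 were called and 3 had an unadjusted p under 0.05, with a median of 0.13. Dusp1, a phosphatase for MAP kinases, was, like Fos, low in controls 1 and 2 (10.45 and 10.73), and it was at 11.88 to 12.39 on the other 6 arrays (0.88 ± 0.37, limma adjusted p = 0.399), Spry2 was at 0.87 ± 0.32 (0.336), and Dusp10, another such phosphatase, was at -0.89 ± 0.50 (0.508).

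Of 16 known targets of AP-1 or Egr factors, 1 was called higher, 9 had an unadjusted p under 0.05 and the median was 0.35, against 0.897% of all genes called, 12.2% of all probes with such a p and a median of 0.0103 over all genes. The one called was Cd44, the hyaluronan receptor, at 10.69, 10.58, 10.84 and 10.42 in controls 1 to 4 and at 12.03, 11.49, 11.996 and 11.58 in S539, S588, S589 and S590. The groups were apart, with a difference of 1.14 ± 0.18 (SE, limma adjusted p = 0.0382), and 3 of its 4 probes were called, the fourth being at 0.87 (0.0805). It was called in none of the fits that left out 1 array. Hbegf, a ligand of the EGF receptor, was also apart (1.36 ± 0.24, 0.0554), and Mmp3, a matrix metalloproteinase, was lower in every exposed thyroid (-1.46 ± 0.33, 0.124).

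**Figure D5:**
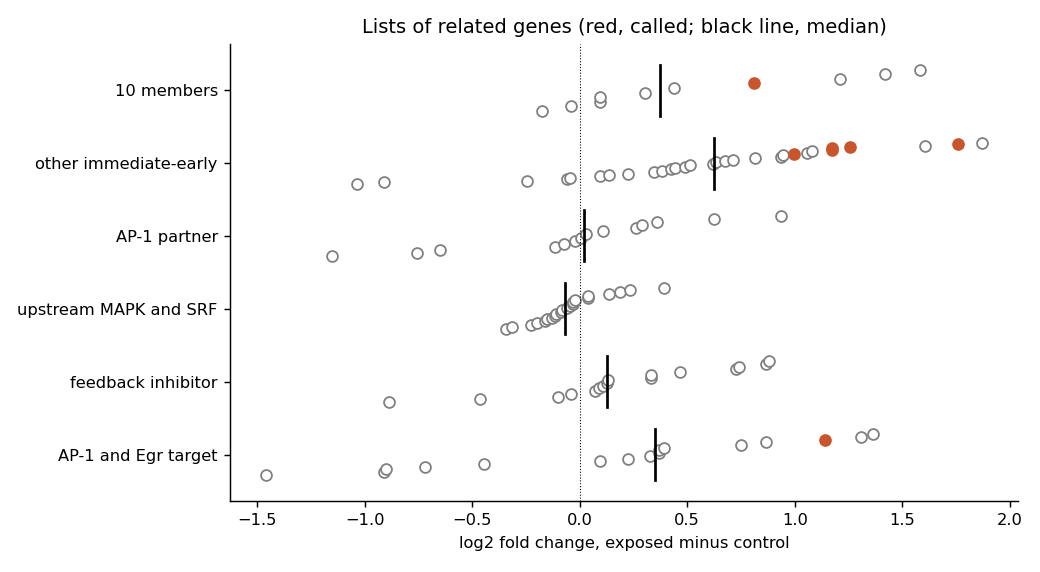
Log2 fold change, exposed minus control, of each gene of the 10 members and of 5 lists of related genes; red points were called by limma, open points were not, and black lines mark medians. Called genes are 1 of 10 members (Fosl2), 5 of 30 other immediate-early genes and 1 of 16 AP-1 and Egr targets (Cd44), with medians from -0.070 (MAPK and SRF) to 0.63 (other immediate-early genes).

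The start regions of these genes were searched for 10 motifs on both strands, in windows from 250 bases before to 50 bases after the starts that RefSeq gives on GRCm38.p6. Entries were found for 8 of the 10 genes (not Egr1 and Ier2) among 27025 genes with 32851 windows. The Egr binding site GCGGGGGCG was present in Fosl2, Fosb and Nr4a1, 3 of 8, and in 2.91% of all windows, and it begins 79, 50 and 60 bases before the start. The GC box GGGCGG, which can overlap that site, was present in 6 of 8 and in 35.7% of all windows, the TATA box TATAAA in Fos and Junb and in 13.6%, the CCAAT box CCAAT in Ier3, Jun and Junb and in 37.4%, and the CRE core TGACGT in Fos and in 7.51%. The letters TATAAA begin 33 bases before the start in Fos, but at the start itself in Junb. The full CRE, the palindrome TGACGTCA that CREB and ATF proteins bind and that holds the core, was in 0 of 8 and in 1.79%. The SRF site (CArG box, 1.63% of all windows), the AP-1 site (TGACTCA or its reverse complement, 5.2%), the ETS site CCGGAAG (8.86%) and the p53 half-site (8.36%) were in 0 of 8, which says only that those letters are not in these windows. The 250 bases before the start are given, 5′ to 3′ on the gene's strand, for the 3 genes with the Egr site and for Fos. Those 3 were picked because Egr1 was higher in every exposed thyroid, a difference that did not pass after adjustment. Capitals mark the Egr site (its reverse complement in Nr4a1) and, in Fos, the CRE core and the TATA box.
Fosl2 (chr5:32136222-32136471, plus strand): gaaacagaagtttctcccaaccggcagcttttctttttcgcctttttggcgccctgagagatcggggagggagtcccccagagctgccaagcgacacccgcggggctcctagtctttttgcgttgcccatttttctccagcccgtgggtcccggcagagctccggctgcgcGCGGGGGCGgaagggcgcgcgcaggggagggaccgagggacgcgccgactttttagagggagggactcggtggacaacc
Fosb (chr7:19310046-19310295, minus strand): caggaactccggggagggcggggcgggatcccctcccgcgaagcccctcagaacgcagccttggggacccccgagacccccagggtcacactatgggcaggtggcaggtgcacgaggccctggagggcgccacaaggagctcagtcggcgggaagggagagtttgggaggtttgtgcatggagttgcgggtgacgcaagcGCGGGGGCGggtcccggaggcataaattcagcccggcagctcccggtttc
Nr4a1 (chr15:101266596-101266845, plus strand): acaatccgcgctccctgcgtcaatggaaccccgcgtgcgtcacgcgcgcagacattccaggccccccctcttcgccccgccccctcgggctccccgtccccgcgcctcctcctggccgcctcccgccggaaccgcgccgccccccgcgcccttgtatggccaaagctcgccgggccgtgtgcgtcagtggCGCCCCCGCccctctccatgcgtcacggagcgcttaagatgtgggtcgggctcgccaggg
Fos (chr12:85473640-85473889, plus strand): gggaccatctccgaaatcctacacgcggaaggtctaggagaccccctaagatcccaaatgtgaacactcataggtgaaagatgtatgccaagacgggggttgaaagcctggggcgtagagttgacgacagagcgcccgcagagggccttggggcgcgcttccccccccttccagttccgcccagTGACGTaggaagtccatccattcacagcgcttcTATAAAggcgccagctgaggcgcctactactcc

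Fosl2, which was called, carries the Egr site, and so do Fosb and Nr4a1, which were not. The site was also in 3 of the 20 other immediate-early genes with an entry (Klf2, Klf4 and Zfp36), and none of these was called. Of the 5 other immediate-early genes called, 4 had an entry (not Trib1), and 3 of these 4 (Btg2, Maff and Plk2) held the full CRE, found in 1.79% of all windows. They were the only ones to do so among the 20 genes of that list with an entry. The CRE and the Egr site are each 1 of the 10 motifs searched, and the 4 genes were picked by their calls in these data. The CRE core (7.51% of all windows) and the GC box (35.7%) were each in 4 of 4, and the p53 half-site (8.36%) was in 0 of 4. Over the 20 genes of that list with an entry, called or not, the CRE core was in 8, the GC box in 18 and the p53 half-site in 1. The stretch around the full CRE is given for Btg2, Maff and Plk2, in the same orientation and build, with the CRE in capitals, beginning 166, 29 and 62 bases before the start. A match describes the letters and not an occupied site, and no binding was measured in these samples.
Btg2 (chr1:134079288-134079347, minus strand): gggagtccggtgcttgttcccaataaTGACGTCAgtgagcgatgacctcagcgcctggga
Maff (chr15:79347465-79347519, plus strand): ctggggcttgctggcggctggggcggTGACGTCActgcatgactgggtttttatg
Plk2 (chr13:110394956-110395015, plus strand): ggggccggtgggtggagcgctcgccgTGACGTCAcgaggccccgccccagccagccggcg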

How the data were processed

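RNA of 8 thyroids, 4 control and 4 exposed, was labelled with Cy3 and hybridised to Agilent mouse 8×60K arrays, all on 1 slide and in 1 scan. Exposed samples held the first positions and controls the rest, and the groups cannot be told apart from position. The deposited files of the scanner (Feature Extraction 10.7.3.1, design on mm9) give the intensity of each spot after background subtraction, and the authors also deposited a table of log2 values, normalized between slides by quantiles, which served as an alternative. From the scanner intensity, log2 was taken of all 59305 non-control spots, quantile-normalized with limma 3.58.1 in R 4.3.3, and averaged per probe. Tc was set against Ct with lmFit and eBayes for 55681 probes, p-values were adjusted over all of them (Benjamini-Hochberg), and probes were called at an adjusted p under 0.05 with no fold limit, as the methods of the study state limma and that threshold. Intervals are 95% intervals of the same fit. A gene was read through its probe of highest mean signal, and all probes are given for members and called genes. Permutation tests were two-sided and exact.

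Members and lists were chosen with earlier results of these data known. Named genes are all members, called genes of each list, the 3 largest differences per list whose average log2 signal reached 7, the 5 genes most like the members' mean, Cdkn1a and Slc5a5, and some genes of the lists are not reported here. Markers were listed for 12 cell types. Those of C cells, parathyroid, B cells, endothelium, adipocytes and erythroid cells held no called gene and no summed signal that separated the groups. Between 60.5% and 77.3% of spots were well above background per array, and precision is limited by having 4 arrays per group. The procedure was tested on simulated data. Alternatives were the 75th percentile scaling, normexp with an offset of 50, no background subtraction, the deposited log2 values, filters on dim probes and marked spots, a variance trend, array weights, the methods' t-test, other probe rules and leaving out arrays. Promoter windows are from RefSeq. Protein sequences were not used here.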

Additional observations from a re-analysis of the deposited data

Results flagged for a closer look

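Among 44 groups of 4 arrays, 3 held 1 array whose gap to the nearest of the others was, relative to the group's range, above Dixon's 95% critical value, where chance gives about 2.2. In each case the array was S539. Its Fosb level was 11.35, with the next exposed thyroid at 9.21. For the brighter Fosl2 probe it was at 12.46, with the next at 12.33, a gap that is large only beside the tight range of that group. For Plk2 it was at 11.09, with the next at 10.67. S539 was also the highest exposed thyroid for 6 of the 10 genes.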

How the results depend on the processing

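The Fosl2 difference kept its direction in 19 alternatives and its call in 9 of them (0.47 to 0.88, limma adjusted p from 0.00617 to 0.454 over all 19). It was not called with the mean of both probes (0.47, 0 of 10 genes called), without both controls 1 and 2 (0.72), or in any fit with 1 array left out (0.77 to 0.88). Fos (0.058 to 2.24), Fosb (0.65 to 1.47), Egr1 (0.75 to 1.71), Jund (0.075 to 0.42) and Nr4a1 (0.025 to 0.94) stayed above 0 and uncalled in 19 alternatives each. The small differences of the other 4 genes, which were never called, had no fixed sign. With 1 array left out, Jun ran from -0.23 to 0.23 (above 0 without control 3, 0.095 without S588 and 0.073 without S589), Junb from -0.36 to 0.61 (below 0 without S539, and -0.18 without control 1), Ier2 from -0.71 to 0.21 (above 0 without control 3, 0.0196 without control 4 and 0.097 without S588) and Ier3 from -0.076 to 0.29 (below 0 without S590, and -0.059 without control 4). Jun was at 8e-04 with 75th percentile scaling, and Junb at -0.43 without both controls 1 and 2.

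With 1 array left out, 100 to 485 probes were called in all against 435, 0 to 0 of the member probes and member genes, 0 to 4 of the other immediate-early genes, 0 to 1 of the AP-1 partners and 0 to 0 of the AP-1 and Egr targets. Without both controls 1 and 2, chosen after seeing the data, 83 probes were called and 0 member probes, member genes, other immediate-early genes or targets. Over all probes, the count was 856 with normexp, 962 without background subtraction, 955 with the deposited values, 733 without dim probes, 744 with a variance trend, 959 with array weights and 289 with the methods' t-test after Benjamini-Hochberg adjustment, which called 2 other immediate-early genes. The other immediate-early genes called were 8 without background subtraction and 8 with the deposited values. Of the AP-1 partners, 1 was called with normexp, without background subtraction, with the deposited values and with the trend (Maf, lower), and 1 with array weights (Jdp2, higher). Of the targets, 2 were called with 75th percentile scaling, and 3 with normexp, without background subtraction, with the deposited values, without dim probes, with the trend and with array weights. The cause of these differences was not tested. At an unadjusted p under 0.05, which is not the study's rule for the arrays, the t-test called 6962 probes. Among them were 2 member probes, 2 member genes, 17 other immediate-early genes, 6 partners, 2 upstream genes, 2 feedback inhibitors and 7 targets. Scaling to the 75th percentile shifted the median of all probes to 0.16, so that its differences are read relative to that shift, and 84.7% of its called probes were higher, against 75.2%. No paired analysis was possible because the labels give exposed and control animals no shared numbers.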
